A study of Mus musculus with 12 samples.

Results

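The mitochondrial carrier family (Slc25, with the uncoupling proteins Ucp1, Ucp2 and Ucp3) was examined in liver RNA of 12 female mice aged 4 months on normal chow. Members were the rows of the deposited gene table whose symbol begins with Slc25a, plus the 3 uncoupling proteins, and rows with under 10 counts summed over the 12 mice were left out. The rule kept 46 members of 51 rows, in a table of 48795 genes. The 5 rows under the minimum were Ucp1, Slc25a41 and Slc25a54 with 0 counts, Ucp3 with 2 and Slc25a18 with 7. There were 3 mice in each group. Wild-type mice (Nts+/+, labelled NTS WT) were fed freely (mice 254, 257 and 323) or went without food for 22 h (265, 282 and 322). Knockout mice (Nts-/-, labelled NTS KO) were likewise fed (277, 303 and 319) or fasted for 22 h (284, 290 and 295). Nts encodes neurotensin, a peptide hormone of the gut and nervous system. The labels describe the mice as littermates matched for sex and age, without naming the litters, and the study's methods give the deletion as whole-body, in mice bred from heterozygous parents.

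Most carriers of this family sit in the inner mitochondrial membrane, with a few in the outer membrane or in peroxisomes, and they are built from repeats of a common unit of paired helices. Each exchanges or imports a small set of metabolites, such as acylcarnitines for fatty acid oxidation, citrate for cytosolic fat synthesis, ornithine for the urea cycle, or ADP and ATP. In liver, fasting moves metabolism from storing fat and sugar to burning fatty acids and making glucose, ketone bodies and urea, and all of these paths cross the inner membrane through carriers.

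Depth ranged from 21999647 to 45273069 counts per mouse, so that 3 counts, the limit that a count of 0 allows, equal 0.0663 to 0.136 CPM (counts scaled to a common library total). Such limits cover counting error only. Nts itself had 0 counts in all 6 libraries labelled Nts+/+ and from 4 to 46 counts in the 6 labelled Nts-/-. Its few counts were thus seen only under the knockout label. The reason was not tested, and these counts do not show whether the labels are right. Genotype groups below are therefore named as labelled, and every genotype direction rests on those labels. Hepatocyte markers (5 of 5 detected) summed to between 106800 and 145300 CPM in every mouse, in separate ranges in mice labelled Nts-/- (106800 to 121900 fed, 124200 to 132900 fasted) and overlapping ones in Nts+/+ mice. The sum of 3 sinusoidal endothelial markers was 74.7 to 118 CPM in fed Nts+/+ mice and 63.8 to 69.0 when fasted, and 94.8 to 99.1 and 56.5 to 71.5 in mice labelled Nts-/-. The 5 Kupffer cell markers summed to 455 to 503 CPM in fed Nts+/+ mice and 235 to 398 when fasted, whereas the ranges overlapped in mice labelled Nts-/- (288 to 411 and 292 to 362). The 3 stellate cell markers lay in separate ranges in Nts+/+ mice alone (175 to 187 CPM fed, 146 to 164 fasted), and the 3 cholangiocyte markers in mice labelled Nts-/- alone (4.199 to 5.66 fed, 2.61 to 3.90 fasted). Lymphocyte, erythroid and brown fat lists overlapped between fed and fasted mice in both genotypes. Skeletal muscle markers were at most 0.0403 CPM with Acta1 and Myh4 at 0. The 4 adipocyte markers were at most 0.260 CPM, with Lep at 0 and fasted above fed mice in both genotypes. Their fed sums, at most 0.0443 CPM, and their lowest fasted sum, 0.0472, were under the limit of 3 counts. The part of all these marker lists in the results below was not tested, and in bulk liver RNA fewer cells of a type and less RNA per cell cannot be told apart.

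Upstream sequence is shown for 4 members, Slc25a20 and Slc25a47, which were higher in fasted livers, and Slc25a1 and Slc25a23, which were lower. The windows are RefSeq promoters of GRCm38.p6, the 250 bases before the RefSeq start, without bases that lie inside the gene as the count table places it. They are chr9:108661886-108662087 (plus strand) for Slc25a20, chr12:108850879-108851128 (plus strand) for Slc25a47, chr16:17928220-17928469 (minus strand) for Slc25a1 and chr17:57059864-57060113 (minus strand) for Slc25a23. Capitals mark matches on either strand to the nuclear receptor core motif AGGTCA, the E-box CACGTG, the CCAAT box CCAAT and the GC box GGGCGG, none of which overlap in these windows.
Slc25a20: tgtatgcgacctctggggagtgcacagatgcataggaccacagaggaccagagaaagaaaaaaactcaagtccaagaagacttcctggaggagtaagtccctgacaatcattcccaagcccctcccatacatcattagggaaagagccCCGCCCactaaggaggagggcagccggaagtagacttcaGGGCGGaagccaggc
Slc25a47: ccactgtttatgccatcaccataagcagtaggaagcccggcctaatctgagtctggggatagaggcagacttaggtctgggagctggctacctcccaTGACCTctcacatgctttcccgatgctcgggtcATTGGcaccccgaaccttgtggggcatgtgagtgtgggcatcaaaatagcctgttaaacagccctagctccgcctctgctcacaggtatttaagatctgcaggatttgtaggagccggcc
Slc25a1: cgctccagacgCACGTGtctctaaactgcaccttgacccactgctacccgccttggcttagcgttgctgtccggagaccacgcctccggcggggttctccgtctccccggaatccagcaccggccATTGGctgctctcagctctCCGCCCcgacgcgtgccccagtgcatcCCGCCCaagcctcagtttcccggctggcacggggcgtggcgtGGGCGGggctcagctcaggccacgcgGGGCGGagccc
Slc25a23: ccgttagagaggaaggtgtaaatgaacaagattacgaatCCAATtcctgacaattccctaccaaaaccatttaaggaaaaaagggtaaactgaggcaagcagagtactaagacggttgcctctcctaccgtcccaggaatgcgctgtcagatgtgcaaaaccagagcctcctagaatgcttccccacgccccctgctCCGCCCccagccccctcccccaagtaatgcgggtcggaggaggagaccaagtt

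The 4 windows differed in make-up. Slc25a20 had 3 GC boxes in its full window, starting 102, 63 and 10 bases before the RefSeq start, of which the last lies in the part not printed. Slc25a47 had no GC box but a CCAAT box 120 bases and an AGGTCA motif 153 bases before the start. Slc25a1 had 4 GC boxes, a CCAAT box and an E-box 239 bases before the start, and Slc25a23 had 1 CCAAT box and 1 GC box. Windows were found for 35 of the 46 members, and their GC content ranged from 41.6% to 78% with a median of 59.6%, against a median of 52.4% over all 32817 windows of the table. The GC box was in 25 of the 35 member windows (71.4%) and in 32.7% of all windows. CCAAT was in 16 (45.7%, against 33.8%), the E-box in 6 (17.1%, against 6.02%), AGGTCA in 4 (11.4%, against 14%), the cyclic AMP response element TGACGTCA in 1, Slc25a36 (2.86%, against 1.55%), and the sterol element TCACNCCAC in 1, Ucp2 (2.86%, against 1.05%). Each member was given 1 window, the one nearest its start in the count table. All windows can hold several per gene and were not limited to the genes tested. The E-box and GC box windows are listed with no test. A match is a run of letters and not a shown binding site. Members lay on 19 chromosomes, with 5 on chromosome 11 and 4 on chromosome X. Slc25a47, at chr12:108851129-108856814, lies 15245 bases from Slc25a29, yet the mean CPM was 755 for Slc25a47 and 2.66 for Slc25a29.

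To compare levels between members, CPM normalized by the trimmed mean of M values (TMM) was divided by the length of the longest annotated transcript in kb. Slc25a47, a liver-enriched carrier whose substrate is debated, had the highest mean over the 12 mice at 391 CPM per kb, followed by the ADP/ATP carrier Slc25a5 at 336 and Slc25a39, needed for glutathione import, at 151. Next came the citrate carrier Slc25a1 (91.4 CPM per kb), the phosphate carrier Slc25a3 (71.4), the ornithine carrier Slc25a15 (69.7), the carnitine/acylcarnitine carrier Slc25a20 (59.0) and the calcium-dependent ATP-Mg/phosphate carrier Slc25a23 (54.9). The dicarboxylate carrier Slc25a10 stood just under them at 54.5. Neighbours in this order had overlapping ranges over the 12 mice, except that Slc25a5 lay above Slc25a39 throughout, and the order depended on feeding. In fed Nts+/+ mice Slc25a5 (302 CPM per kb) stood above Slc25a47 (199), and in fasted Nts+/+ mice Slc25a47 (505) stood above Slc25a5 (379). Slc25a5 has near-identical processed copies in the genome, among them Slc25a5-ps, which had 15.1 estimated counts over the 12 mice, so its count is uncertain to the extent that reads were split among copies. The other ADP/ATP carriers were low, with Slc25a4, the isoform of heart and muscle, at 2.39 CPM per kb and the germ cell isoform Slc25a31 at 0.0204.

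**Figure D1:**
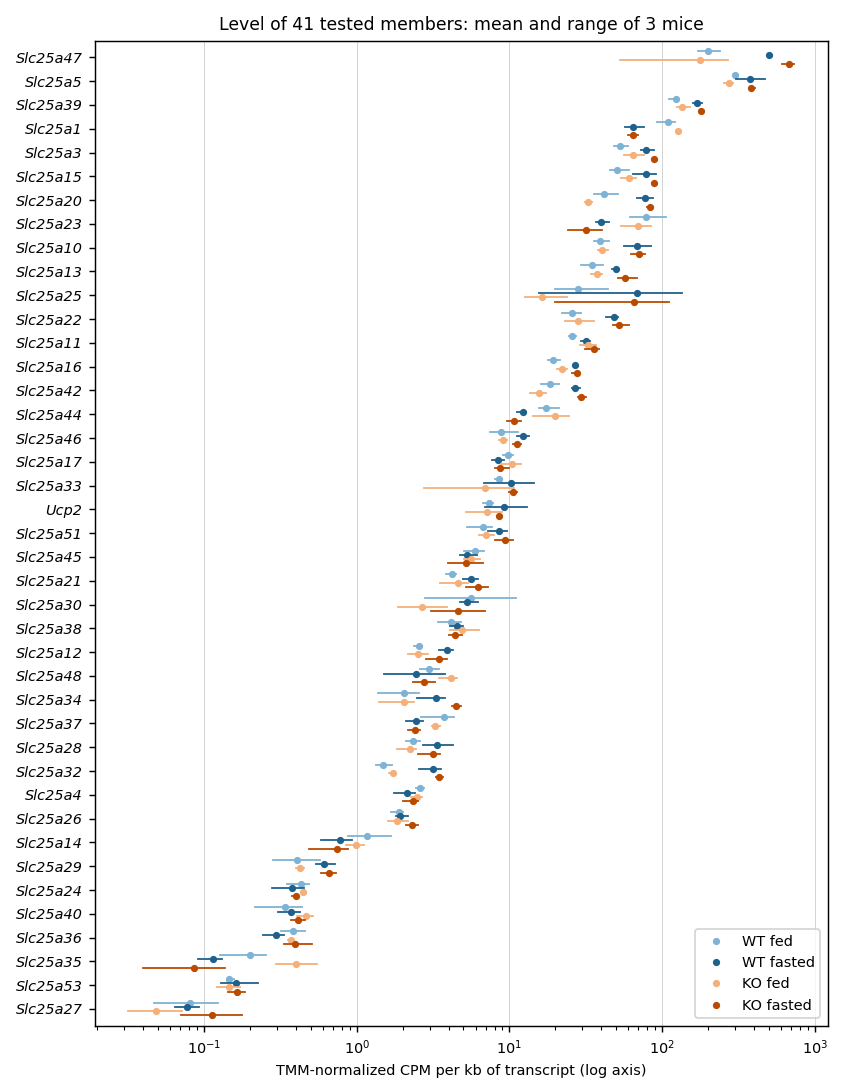
Level of 41 of the 42 tested members in TMM-normalized CPM per kb of the longest transcript (log axis), with the mean (point) and the range (line) of 3 mice in each group (WT, Nts+/+; KO, Nts-/-). Slc25a47 and Slc25a5 lead, and Slc25a27 is lowest at a mean of 0.0797 CPM per kb.

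The 4 members with too few counts to be tested were Slc25a2, Slc25a5-ps, Slc25a31 and Slc25a43, whose mean levels were between 0.0421 and 0.0518 CPM, under the limit of 3 counts in each library. Single libraries lay above their limit, such as Slc25a43 at 0.275 CPM in mouse 284 and Slc25a2 at 0.148 in mouse 254. The remaining 42 passed the filter on low counts and were tested with edgeR's quasi-likelihood test, with p values adjusted over all 13812 genes tested.

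The summed level of the family was higher in fasted than in fed mice of both genotypes. The members took up 0.342% to 0.369% of all counts in fed Nts+/+ mice and 0.474% to 0.514% in fasted Nts+/+ mice. The shares in mice labelled Nts-/- were 0.361% to 0.391% fed and 0.536% to 0.541% fasted. Fed and fasted ranges did not overlap in either genotype. In TMM-normalized CPM, the sum over the 46 members was 3508 ± 81.1 (SD, n = 3) in fed and 5102 ± 451 in fasted Nts+/+ mice, and 3553 ± 217 and 5645 ± 143 in mice labelled Nts-/-. Slc25a47 contributed 11.0% ± 1.94 of the sum in fed and 19.2% ± 1.13 in fasted Nts+/+ mice, and 9.42% ± 5.63 and 23.4% ± 2.53 in mice labelled Nts-/-. Without it, the sum was 3122 ± 102 fed and 4125 ± 424 fasted in Nts+/+ mice, and 3211 ± 97.6 and 4327 ± 219 in mice labelled Nts-/-.

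**Figure D2:**
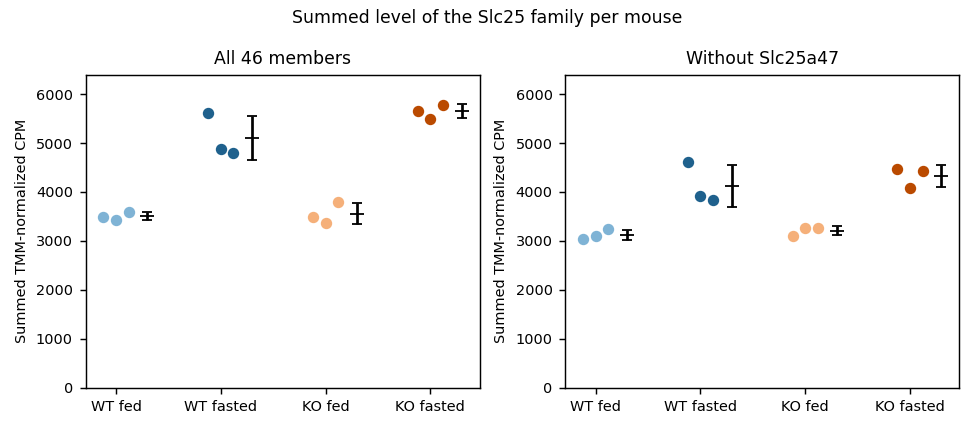
Summed TMM-normalized CPM of the 46 members in each mouse (left) and without Slc25a47 (right), with points for mice and black bars for the mean and SD of 3 mice. Fasted mice lie above all fed mice of the same genotype (4802 to 5621 against 3433 to 3594 in WT, 5498 to 5783 against 3370 to 3792 in KO), also without Slc25a47.

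Tested one by one, 15 of 42 members changed with fasting in Nts+/+ mice at an adjusted p under 0.05, 12 higher and 3 lower. Among all genes tested 18.1% passed, 8.91% higher and 9.19% lower. With fasting in mice labelled Nts-/-, 16 of 42 members changed, 12 higher and 4 lower, where 16.8% of all genes passed, 7.7% higher and 9.14% lower. The counts by role below are to be read against these shares of all genes. The share of members called was thus 35.7% and 38.1%, and the share called lower, 7.14% and 9.52%, was close to that of all genes. The median log2 fold change over the members was 0.31 in Nts+/+ mice and 0.37 in mice labelled Nts-/-, against -0.0032 and -0.011 over all genes tested. Groups of mice did not overlap for 15 higher and 4 lower members in Nts+/+ mice (18.1% and 17.9% of all genes) and for 17 higher and 7 lower members in mice labelled Nts-/- (17.1% and 18.1% of all genes). Both genotypes shared 11 called members, each in the same direction, where 10.7% of all genes were called in both. They make up 73.3% of the Nts+/+ list and 68.8% of the list of mice labelled Nts-/-. These fasting comparisons share no mice, but both use a spread estimated over all 12 mice, so their calls are not fully separate. Over all genes, 1481 were called in both, of 2501 called in Nts+/+ mice and 2326 in mice labelled Nts-/-. Most genes on either list were thus shared as well.

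**Figure D3:**
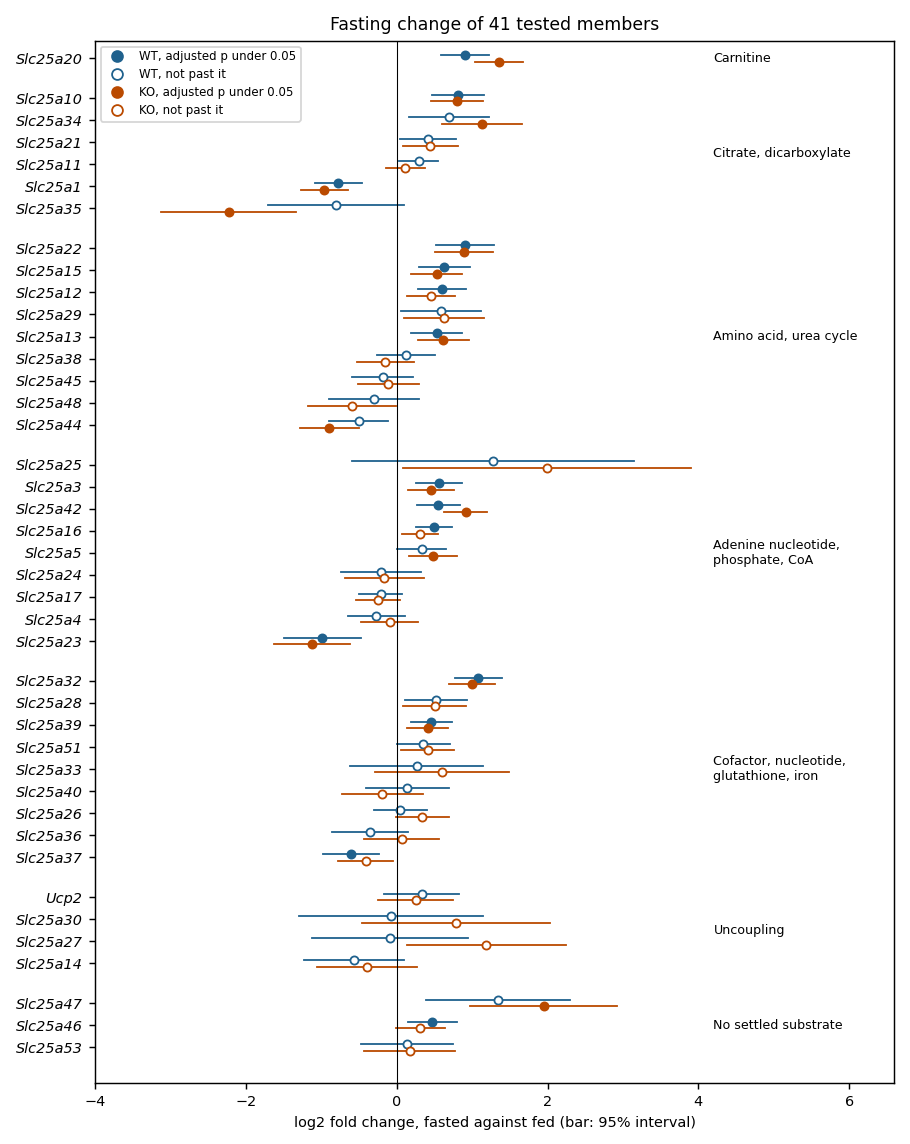
Log2 fold change of 41 of the 42 tested members between fasted and fed livers, by role, with its 95% interval, for WT (Nts+/+, blue) and KO (labelled Nts-/-, orange), where filled points have an adjusted p under 0.05. Slc25a20, Slc25a32 and Slc25a22 lie to the right and Slc25a1 and Slc25a23 to the left in both genotypes, and Slc25a25 and Slc25a47 have wide intervals.

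Slc25a20 carries acylcarnitines into the matrix, a step that long-chain fatty acid oxidation depends on. It measured 104, 98.4 and 142 CPM in the fed Nts+/+ mice and 239, 216 and 188 in the fasted ones. Among mice labelled Nts-/- it measured 88.1, 86.2 and 95.2 CPM fed and 233, 238 and 219 fasted. Every fasted mouse stood above every fed mouse. The log2 fold change was 0.90 (SE 0.15, adjusted p = 0.00137) in Nts+/+ mice and 1.36 (SE 0.15, adjusted p = 8.0e-05) in mice labelled Nts-/-, that is, 1.87-fold and 2.56-fold. The enzymes on both sides of this carrier rose as well: Cpt1a, which makes acylcarnitines at the outer membrane, by 2.89-fold and 3.18-fold, Cpt2, which turns them back into acyl-CoA in the matrix, by 1.88-fold and 1.89-fold, and Crat, the carnitine acetyltransferase, by 2.53-fold and 2.26-fold.

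Among the carriers of citrate, dicarboxylates and keto acids (6 members, all tested), Slc25a10 rose and Slc25a1 fell in both genotypes. Slc25a1 exports citrate, the carbon source of cytosolic fatty acid and sterol synthesis. It measured 226, 216 and 171 CPM in fed and 107, 110 and 142 in fasted Nts+/+ mice, and 232, 228 and 244 against 121, 111 and 129 in mice labelled Nts-/-. Its groups did not overlap in either genotype, and it fell by 0.78 (SE 0.14, adjusted p = 0.00288) and by 0.96 (SE 0.14, adjusted p = 0.000641) on the log2 scale. Acly, the enzyme that splits the exported citrate, fell by 2.28 and by 2.85. Slc25a10, which exchanges malate or succinate for phosphate, was at 145, 182 and 147 CPM in fed and 344, 262 and 229 in fasted Nts+/+ mice. The mice labelled Nts-/- had 157, 179.5 and 154 CPM fed and 255, 284 and 316 fasted. Each fasted mouse exceeded the fed mice, with log2 fold changes of 0.81 (SE 0.16, adjusted p = 0.00436) and 0.80 (SE 0.16, adjusted p = 0.00497).

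Slc25a34 and Slc25a35, close relatives whose substrates are not settled, moved in opposite directions in mice labelled Nts-/-. Slc25a35 was a low-level member, at 0.960, 0.552 and 1.11 CPM in fed and 0.522, 0.397 and 0.570 in fasted Nts+/+ mice. Mice labelled Nts-/- had 1.59, 2.39 and 1.29 CPM fed and 0.596, 0.173 and 0.354 fasted. The fed mice labelled Nts-/- were thus above all others, and the Nts+/+ groups overlapped. It fell by 2.23 (SE 0.42, adjusted p = 0.00306) on the log2 scale in mice labelled Nts-/-, and its change in Nts+/+ mice was -0.80 (SE 0.42, adjusted p = 0.205). Slc25a34 rose from 5.60 ± 1.52 to 12.2 ± 0.885 CPM in mice labelled Nts-/- (log2 1.13, SE 0.25, adjusted p = 0.00751), and was 5.59 ± 1.65 fed and 9.02 ± 1.90 fasted in Nts+/+ mice (log2 0.69, adjusted p = 0.0693). Neither the oxodicarboxylate carrier Slc25a21 (log2 0.41 and 0.45) nor the oxoglutarate/malate carrier Slc25a11 (0.29 and 0.11) passed the test in either genotype.

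**Figure D4:**
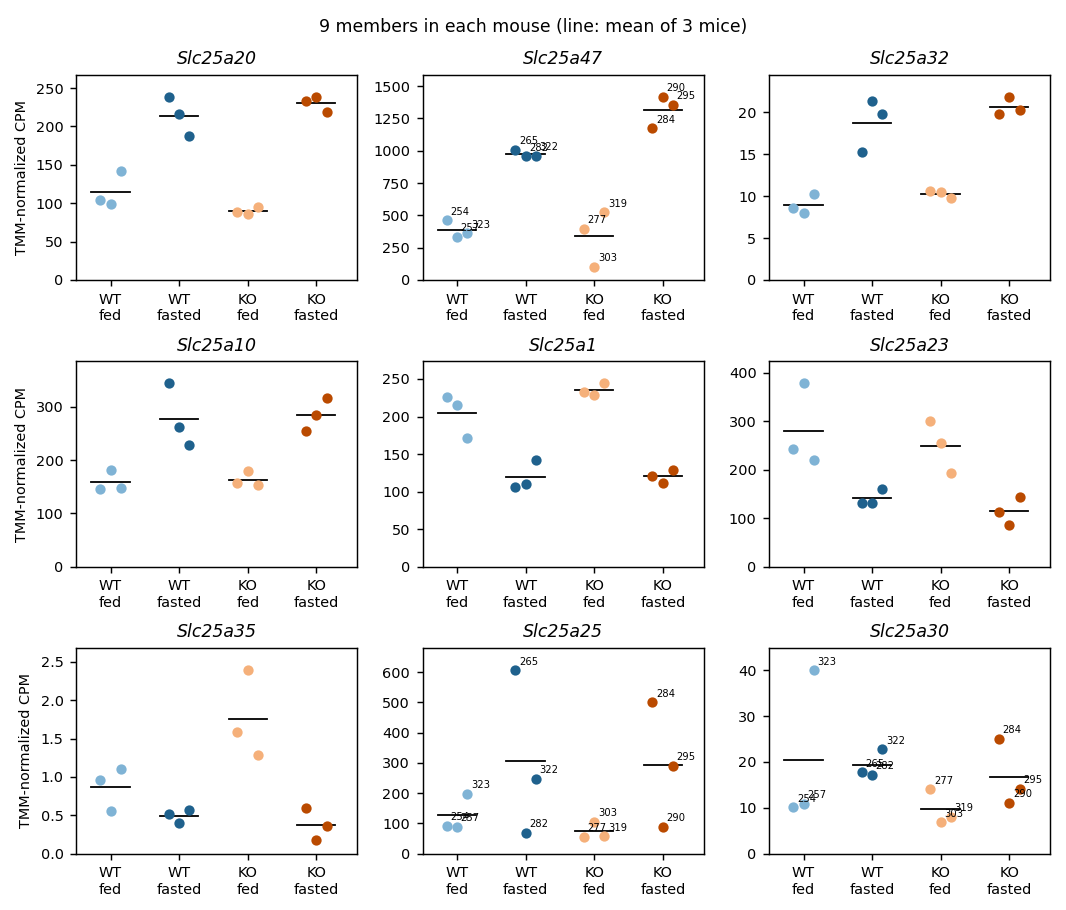
TMM-normalized CPM of 9 members in each of the 12 mice (points) with the mean of 3 mice (line), each axis starting at 0 (WT, Nts+/+; KO, labelled Nts-/-), and mouse numbers where a mouse stands apart. Fed and fasted mice separate for Slc25a20, Slc25a47, Slc25a32, Slc25a10, Slc25a1 and Slc25a23 in both genotypes, and Slc25a25 spreads from 69.5 to 606 CPM among fasted WT mice.

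Carriers of amino acids and of urea cycle intermediates (10 members, 9 tested) rose in 4 cases in Nts+/+ mice and in 3 in mice labelled Nts-/-, where 1, Slc25a44, fell. The glutamate carrier Slc25a22 was at 164, 125 and 144 CPM in fed and 239, 282 and 288 in fasted Nts+/+ mice. Mice labelled Nts-/- had 145, 129 and 200.1 CPM fed and 269.6, 342 and 269 fasted. Fed and fasted mice did not overlap, and the log2 fold change was 0.90 (SE 0.18, adjusted p = 0.00388) and 0.89 (SE 0.18, adjusted p = 0.00428). The ornithine carrier Slc25a15, which feeds the urea cycle, rose from 310.3 ± 50.2 to 480.5 ± 83.3 CPM in Nts+/+ mice and from 371 ± 41.7 to 535 ± 15.3 in mice labelled Nts-/- (log2 0.63, adjusted p = 0.0153, and 0.53, adjusted p = 0.0358). Slc25a13, the liver aspartate/glutamate carrier citrin of the malate-aspartate shuttle, rose by 0.53 (adjusted p = 0.0327) and 0.62 (adjusted p = 0.0164). Its relative Slc25a12 passed in Nts+/+ mice (log2 0.60, adjusted p = 0.0135) and just missed the threshold in mice labelled Nts-/- (0.45, adjusted p = 0.0508). Slc25a44, which carries branched-chain amino acids, fell by 0.89 (SE 0.18, adjusted p = 0.00513) in mice labelled Nts-/-, from 81.5, 97.6 and 56.0 to 41.7, 38.2 and 46.7 CPM. In Nts+/+ mice it was at 62.6, 82.6 and 61.5 CPM fed and 44.4, 50.7 and 50.3 fasted, with no overlap but with an adjusted p of 0.0681. The remaining members of this group, Slc25a29, Slc25a38, Slc25a45 and Slc25a48, passed in neither genotype.

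Carriers of adenine nucleotides, phosphate and coenzyme A (10 members, 9 tested) rose in 3 cases and fell in 1 in each genotype. Slc25a42, which carries coenzyme A, was at 64.6, 59.1 and 77.8 CPM in fed and 95.03, 94.2 and 106 in fasted Nts+/+ mice, and at 63.7, 49.7 and 59.0 against 105, 117 and 103 in mice labelled Nts-/-. Fasted mice stood above fed mice throughout, by a log2 fold change of 0.55 (SE 0.13, adjusted p = 0.0119) and 0.91 (SE 0.13, adjusted p = 0.000515). The phosphate carrier Slc25a3 rose by 0.56 (adjusted p = 0.0162) and 0.46 (adjusted p = 0.0407), Slc25a16, a relative of Slc25a42, by 0.49 in Nts+/+ mice (adjusted p = 0.00922), and Slc25a5 by 0.48 in mice labelled Nts-/- (adjusted p = 0.0419). Slc25a16 in mice labelled Nts-/- (log2 0.31, adjusted p = 0.0762) and Slc25a5 in Nts+/+ mice (0.33, adjusted p = 0.146) did not pass.

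The calcium-dependent ATP-Mg/phosphate carriers, which set the matrix pool of adenine nucleotides, did not move together. Slc25a23 was at 243, 378 and 220.0 CPM in fed and 132, 131 and 161 in fasted Nts+/+ mice. The mice labelled Nts-/- had 301, 255 and 194 CPM fed and 112, 86.8 and 144 fasted. Fed mice stood above fasted mice in both genotypes, and it fell by 0.99 (SE 0.23, adjusted p = 0.0119) and by 1.13 (SE 0.23, adjusted p = 0.00619). Its relative Slc25a25, described here after its values were seen, had a large mean difference and a wide spread among fasted mice. It was at 92.8, 89.5 and 198 CPM in fed Nts+/+ mice and at 606, 69.5 and 247 when fasted. For mice labelled Nts-/- the values were 56.4, 106 and 58.2 CPM fed and 499.6, 89.4 and 289.9 fasted. Fasted Nts+/+ mouse 282 lay below all fed mice of its genotype, and fasted mouse 290, labelled Nts-/-, lay within the range of the fed ones. Its log2 fold change was 1.28 (95% interval -0.59 to 3.15, adjusted p = 0.322) and 1.99 (0.083 to 3.90, adjusted p = 0.142), which the spread does not separate from 0 after adjustment. In Nts+/+ mice it was 0.33 without mouse 265. The DESeq2 Wald test gave an adjusted p of 0.0425 for it in mice labelled Nts-/-. Slc25a24, at a mean of 1.48 CPM, had log2 fold changes of -0.21 and -0.16 and did not pass, nor did Slc25a4 or the peroxisomal carrier Slc25a17, in either genotype.

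Carriers of cofactors, pyrimidine nucleotides, glutathione and iron (10 members, all tested) held 2 that rose in both genotypes. Slc25a32, which brings folate or FAD into the matrix, was at 8.53, 7.98 and 10.2 CPM in fed and 15.2, 21.3 and 19.8 in fasted Nts+/+ mice, and at 10.6, 10.5 and 9.75 against 19.8, 21.9 and 20.2 in mice labelled Nts-/-. It rose with no overlap, by 2.11-fold (95% interval 1.70 to 2.62, adjusted p = 0.000389) and by 2.00-fold (1.61 to 2.48, adjusted p = 0.000463), and had the smallest p of all members in Nts+/+ mice. Slc25a39 rose by 0.46 (adjusted p = 0.0237) and 0.41 (adjusted p = 0.0412). Its paralog Slc25a40, at a mean of 2.60 CPM, had log2 fold changes of 0.14 and -0.19 and did not pass. The mitoferrins, which import iron, differed from each other. Slc25a37, the erythroid form, named after its values were seen, fell by 0.61 in Nts+/+ mice (adjusted p = 0.0262) with overlapping groups. In mice labelled Nts-/- its change was -0.41 (adjusted p = 0.116), with every fasted mouse below every fed mouse. The widely expressed Slc25a28 was 0.52 and 0.50 higher without passing (adjusted p = 0.0774 and 0.0909). The erythroid markers summed to 266 to 455 CPM in fed and 348 to 491 in fasted Nts+/+ mice. In mice labelled Nts-/- the sums were 321 to 628 CPM fed and 233 to 600 fasted. Their part in the change of Slc25a37 was not tested. The carriers of pyrimidine nucleotides (Slc25a33, Slc25a36), S-adenosylmethionine (Slc25a26) and NAD+ (Slc25a51) passed in neither genotype.

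Slc25a47 rose in mice labelled Nts-/-. It was at 398, 103 and 524 CPM in the fed mice (277, 303 and 319) and at 1175, 1420.0 and 1358 in the fasted ones. In Nts+/+ mice it was at 462, 334 and 360.1 CPM fed and 1008, 959.8 and 962.5 fasted. The groups were far apart in both genotypes, and mouse 303 had the lowest value of all. The log2 fold change was 1.95 (SE 0.44, adjusted p = 0.0133) in mice labelled Nts-/-, 3.86-fold, and 1.34 (SE 0.43, 2.53-fold) in Nts+/+ mice, where the adjusted p of 0.0549 missed the threshold. The call in mice labelled Nts-/- was lost when only the 6 mice compared were fitted (adjusted p = 0.0754). The same choice in Nts+/+ mice gave a call (adjusted p = 0.00128), as did the DESeq2 Wald test (0.0243) and removing the length trend (0.0356), at log2 fold changes of 1.34 to 1.42. Of the other members without a settled substrate, Slc25a46, an outer membrane protein of mitochondrial shape that was named after its values were seen, rose by 0.47 in Nts+/+ mice (adjusted p = 0.0458), with overlapping groups, and Slc25a53 passed in neither.

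The uncoupling proteins and their nearest relatives showed no called change. Ucp1, the brown fat protein, had 0 counts in all 12 mice, which allows up to 3 counts in each library, and Ucp3, the muscle form, had 2 counts in all. Ucp2 was at 33.4, 29.7 and 34.6 CPM in fed and 30.8, 33.7 and 57.8 in fasted Nts+/+ mice, and at 39.7, 32.5 and 22.9 against 39.7, 36.5 and 37.1 in mice labelled Nts-/-. Its groups overlapped in both genotypes (log2 0.33, 95% interval -0.16 to 0.82, adjusted p = 0.347, and 0.25, -0.24 to 0.74, adjusted p = 0.494), and without mouse 322 the value in Nts+/+ mice was -0.012. Slc25a30 stood at 40.0 CPM in fed mouse 323 and between 6.81 and 25.1 in every other mouse. Slc25a14 and Slc25a27 were low, at means of 1.78 and 0.451 CPM.

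Not every call was equally firm. Slc25a1, Slc25a10, Slc25a20, Slc25a22 and Slc25a32 were called in both genotypes under each of the 12 alternatives tried per genotype, which include leaving out each mouse of the comparison. In mice labelled Nts-/-, Slc25a23, Slc25a34, Slc25a42 and Slc25a44 were too, and Slc25a35 under the 11 that could test it. In Nts+/+ mice, leaving out fed mouse 254 ended the calls of Slc25a3, Slc25a13, Slc25a15, Slc25a16, Slc25a39 and Slc25a42, and leaving out fed mouse 257 the same ones except Slc25a16 and with Slc25a23. Without fasted mouse 282 the calls of Slc25a3, Slc25a12, Slc25a13, Slc25a15, Slc25a23 and Slc25a39 were lost. Members called fell to 7, 8 and 7 in these fits, where 9.63%, 11.7% and 9.12% of all genes were called. Leaving out mouse 265 ended the calls of Slc25a13 and Slc25a15, and leaving out 323 that of Slc25a39. The calls of Slc25a37 and Slc25a46 were lost without any 1 of mice 254, 257, 265 and 282 and with only the 6 mice compared, and Slc25a48 passed without mouse 265 alone (adjusted p = 0.0386). In mice labelled Nts-/-, Slc25a3, Slc25a5 and Slc25a39 lost their calls without any 1 of mice 277, 303, 284, 290 and 295, Slc25a15 without any 1 of 277, 319, 284, 290 and 295, and Slc25a13 without 295. Slc25a3 and Slc25a39 also lost theirs with no count filter or with only the 6 mice compared, which ended the call of Slc25a39 in Nts+/+ mice too, and Slc25a5 lost its call with the length trend removed (adjusted p = 0.0633).

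Between genotypes, the comparison asked whether carriers differed with the label Nts-/- in fed livers, in fasted livers, or in their response to fasting. With edgeR's quasi-likelihood test, 0 of 42 members and 0% of all 13812 genes passed in each of the 3 comparisons. The DESeq2 Wald test also called 0 members. Its share of all genes is not given here, so that 0 is not read as a result about carriers. At an unadjusted p under 0.05 there were 3 members in fed livers (6.34% of all genes), 0 in fasted livers (4.96%) and 2 in the difference of the responses (4.8%). In fed livers the groups did not overlap for 3 higher and 2 lower members (4.81% and 5.85% of all genes), and in fasted livers for 4 higher and 0 lower (5.29% and 6.88%). These counts lie near those of all genes. The median log2 difference over the members was 0.022 in fed livers, 0.071 in fasted livers and 0.034 for the response, against 0.010, -0.0087 and -0.020 over all genes.

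The intervals bound what could have been missed. The 95% interval of the difference between genotypes lay inside 2-fold either way for 34 of 42 members in fed livers and for 37 of 42 in fasted livers. For the difference of the fasting response it did so for 31 of 42, the fewest. The 5 members outside that bound in fasted livers were Slc25a25, Slc25a27, Slc25a30, Slc25a35 and Slc25a47. Ranked first in fed livers were Slc25a11 (log2 0.35, 95% interval 0.085 to 0.61, adjusted p = 0.734), Slc25a35 (1.01, 0.18 to 1.84, adjusted p = 0.734) and Slc25a20 (-0.35, -0.67 to -0.039, adjusted p = 0.758). Slc25a11 was at 64.6, 61.7 and 68.6 CPM in fed Nts+/+ mice and at 73.2, 81.8 and 93.0 in fed mice labelled Nts-/-. Ranked first in fasted livers were Slc25a34 (log2 0.44, -0.078 to 0.96), the pyrimidine nucleotide carrier Slc25a36 (0.39, -0.11 to 0.90) and the S-adenosylmethionine carrier Slc25a26 (0.25, -0.098 to 0.60), each with an adjusted p of 0.917. Slc25a47 was 0.43 higher (95% interval -0.51 to 1.37, adjusted p = 0.927) in fasted mice labelled Nts-/-, whose 3 values all exceeded those of fasted Nts+/+ mice.

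For the difference of the fasting response between genotypes, the first ranked were Slc25a35 (log2 -1.43, 95% interval -2.71 to -0.15), Slc25a20 (0.46, 0.011 to 0.90) and Slc25a42 (0.36, -0.042 to 0.76), each with an adjusted p of 0.897. Slc25a20 and Slc25a42 had a lower fed mean in mice labelled Nts-/- (89.8 against 115 CPM, and 57.5 against 67.2) and a higher fasted mean (230.0 against 214, and 108 against 98.5). Without fed mouse 323, the value for Slc25a20 was 0.28 for the response and -0.17 for the fed difference. In fasted livers, the difference of Slc25a34 was 0.27 without mouse 282, and that of Slc25a36 was 0.26 without mouse 282 and 0.18 without mouse 290. None of these differences passed after adjustment, and members called in 1 genotype alone are not shown to respond differently.

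**Figure D5:**
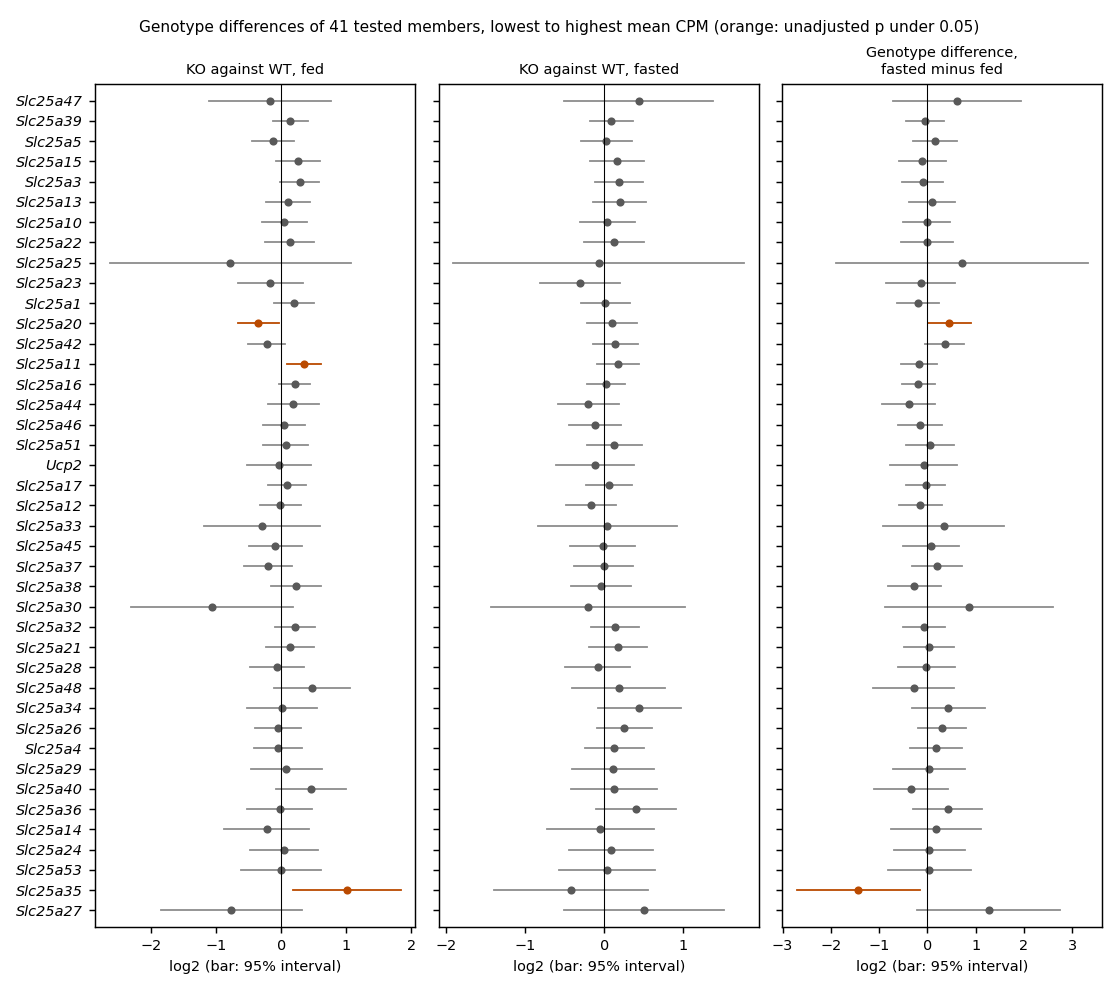
Log2 difference between mice labelled KO (Nts-/-) and WT (Nts+/+) for 41 of the 42 tested members when fed (left), when fasted (middle), and the fasted minus the fed difference (right), with 95% intervals, ordered by mean CPM. Intervals include 0 except for 3 members in fed livers (Slc25a11, Slc25a35 and Slc25a20) and 2 in the right panel (Slc25a35 and Slc25a20), and no adjusted p is under 0.05.

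Other proteins that carriers work with were taken from lists chosen with earlier results of these data known. Their counts are therefore a description and no test of the lists. Of all genes tested, 8.91% were called higher and 9.19% lower with fasting in Nts+/+ mice, and 7.7% and 9.14% in mice labelled Nts-/-. Of 12 genes of carrier import, which bring carriers from the cytosol through the outer membrane and insert them into the inner one, 4 rose in each genotype and 0 fell. The outer membrane receptors Tomm20 (log2 0.91 and 0.92, adjusted p = 0.000346 and 0.000241) and Tomm70a (0.48 in both, adjusted p = 0.0232 and 0.0239) and the chaperone Timm9 (0.62 and 0.80) rose in both genotypes. Tomm40, the pore, rose in Nts+/+ mice (log2 0.78, adjusted p = 0.00226) and Timm8a1 in mice labelled Nts-/- (0.93, adjusted p = 0.0107). The carrier insertase Timm22 passed in neither (log2 -0.12 and 0.020). The list's median was 0.36 and 0.41. Of 5 outer membrane channels and divergent relatives, Vdac3 rose in both genotypes (log2 0.38 and 0.42), and Vdac2 (0.49) and Mtch2 (0.38) in mice labelled Nts-/-, with list medians of 0.25 and 0.38.

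Of 16 enzymes that make or use what the carriers move, 8 rose in each genotype, and 2 fell in Nts+/+ mice and 1 in mice labelled Nts-/-, with medians of 0.83 and 0.73. Besides those of acylcarnitines above, pyruvate carboxylase Pcx rose 2.10-fold and 2.12-fold, the aspartate aminotransferase Got1 2.37-fold and 2.11-fold, the urea cycle enzymes Asl 2.38-fold and 2.67-fold and Arg1 1.89-fold and 1.78-fold, and malate dehydrogenase Mdh2 1.46-fold and 1.51-fold. Acly fell in both genotypes, and the ornithine transcarbamylase Otc, the matrix enzyme that uses the ornithine Slc25a15 imports, fell by 0.55 in Nts+/+ mice (adjusted p = 0.0455) and was -0.31 in mice labelled Nts-/- (adjusted p = 0.25). The urea cycle enzymes Ass1 (log2 0.015 and -0.26, adjusted p = 0.98 and 0.58) and Cps1 (0.74 and 0.63, adjusted p = 0.0585 and 0.101) passed in neither genotype. Nor did Pck1, Got2, Mdh1 or Fech. None of the 3 lists held a gene called between genotypes.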

How the data were processed

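Total RNA of 12 livers was reverse transcribed and sequenced. Expected counts (estimated reads of each gene, often fractional and unscaled between mice) were deposited with GRCm38 positions. The submitters' processing notes name Trimmomatic and RSEM, with versions not given in the sources used here, nor whether counting used strand. Columns of other samples numbered 0. All samples carry the same batch label.

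Expected counts were rounded. In R 4.3.3, edgeR 4.0.16 kept 13812 genes (filterByExpr), normalized them with TMM and fitted a mean per group over all 12 mice with robust quasi-likelihood tests (biological coefficient of variation 0.202). Benjamini-Hochberg adjusted p values under 0.05 were called. Standard errors are the log2 fold change over the square root of F, and intervals are 95%. CPM per kb used the longest GENCODE vM39 transcript, matched for 99.2% of tested genes. Steps were tested on simulated data. Pairs of mice within a group differed by more than sampling noise (chi-square per degree of freedom 37.2 to 103).

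The members, gene lists and tests were chosen with earlier results of these data known. Named members are those called in both fasting comparisons, the 6 smallest p values called in 1, the 3 smallest p values in each genotype comparison and in the interaction, the 8 highest levels per kb, and Ucp1 to Ucp3. Alternatives were DESeq2 1.42.0 (Wald test), leaving out each mouse, fitting the compared mice alone, RLE normalization, keeping genes without a filter or with 10 counts or more per mouse, and offsets that take out the trend with length. Values of 1 tested member are not reported here, though it is counted among the members.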

Additional observations from a re-analysis of the deposited data

How the results depend on the processing

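The number of members changed by fasting was 15 in Nts+/+ mice and stayed between 14 and 19 under the alternatives that kept all mice of the comparison, and between 7 and 17 when 1 mouse was left out, the lowest being 7 without fed mouse 254 or fasted mouse 282 and 8 without fed mouse 257. Without fasted mouse 265 it was 12, without fed mouse 323 it was 15 and without fasted mouse 322 it was 17. The cause of these differences was not tested. In mice labelled Nts-/- the number of members was 16, between 13 and 19 under the alternatives that kept all mice, and between 12 and 15 with 1 mouse left out. The share of all genes called moved too, in Nts+/+ mice from 9.35% to 20.9% with all mice kept and from 9.12% to 17.6% with 1 left out, and in mice labelled Nts-/- from 8.82% to 20.2% and from 9.99% to 19.1%, the lowest shares with all mice being those with no count filter. Both genotype comparisons and the difference of responses stayed at 0 members, with the shares of all genes under these alternatives not given here. Of 599 values of single named members under an alternative, 532 kept their direction and side of the threshold, 49 dropped below it, 17 passed it and 1 reversed, Ucp2 in Nts+/+ mice without fasted mouse 322, where leaving out single mice gave log2 values from -0.012 to 0.50. No paired analysis was possible because each mouse is in 1 group and the litters are not named. Members under about 1 CPM, such as Slc25a27 and Slc25a35, are limited by depth.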
